A study of Homo sapiens with 4 samples.

Results

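The shift of polysome loading with RBM35A is the change, from RBM35A- to RBM35A+ cells, in how much of a transcript read on the polysomal array relative to the total RNA array. For each gene it was taken as the polysomal minus total difference in RBM35A+ cells minus the polysomal minus total difference in RBM35A- cells, on the log2 scale. A shift of -1 therefore means that the polysomal to total ratio was 2-fold lower in RBM35A+ cells, and a shift of 1 that it was 2-fold higher. A gene's value came from the probe set that was brightest on average, among probe sets that are not controls and carry exactly 1 gene symbol. Genes at a log2 level of 5 or more on all 4 arrays were kept, so that no difference rests on a value under 5: 3004 of 8225 genes. Levels just above 5 may still lie near background. A further 584 genes reached 5 on at least 1 array but not on all. Just inside the limit were ZNF148 (lowest level 5.01, shift 0.18), TAOK2 (5.01, -0.01) and CAPRIN1 (5.01, -0.02), and just outside were CBR1 (5.00, 0.40), UPF2 (5.00, -0.26) and LMNB1 (5.00, 0.11).

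An mRNA that is being translated carries several ribosomes and sediments with the polysomes in a sucrose gradient, while untranslated mRNA stays in the lighter fractions. The polysomal share of a transcript relative to its total level is therefore read as a measure of how well it is loaded with ribosomes. RBM35A, now named ESRP1, is an RNA-binding protein of epithelial cells best known as a regulator of alternative splicing.

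The cells were LS180, an established human colon carcinoma line with goblet-like features, grown to at most 80% confluency. RBM35A+ cells carried a Tet-off RBM35A construct and were grown without doxycycline, which turns the construct on, for 6 days or longer. RBM35A- cells were kept with doxycycline, and the labels call them the parental cells without saying whether they held the construct. Doxycycline thus changed together with RBM35A, and their effects cannot be told apart. Polysomal RNA came from pooled polysomal fractions of 10 to 40% sucrose gradients run on lysates of cycloheximide-treated cells, and total RNA from TRIZOL extracts. The labels list the polysomal samples as polyA RNA and the others as total RNA, without describing a poly(A) selection, so in the polysomal minus total values of 1 state loading and RNA type cannot be told apart. The RNA type was the same in both states. There was 1 array for each of the 4 groups, so no shift has a replicate check and no p-value is given. In bulk RNA, a change in the share of cells that hold a transcript and a change in its level per cell cannot be told apart.

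The epithelial identity of the cells was borne out by the arrays: 8 of 10 intestinal epithelial markers were kept, with levels on the RBM35A- total RNA array from 8.74 for VIL1 to 13.86 for KRT8, while KRT20 and ELF3 were under 5 on at least 1 array. Of 15 haematopoietic markers on the array, 1 was kept (HBB, shift 0.01), and of 16 fibroblast and endothelial markers 0 were kept. RBM35A had 0 probe sets in the annotation, so whether it was on rests on the labels.

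Over the 3004 genes the shift had a median of 0.00 and an SD of 0.27, and 96.6% of genes lay within 1.5-fold. The 5th and 95th percentiles were -0.46 and 0.43. Genes at 1 or more numbered 3 (0.0999%), and genes at -1 or less numbered 9 (0.3%). At 1.5-fold, a shift of 0.58, 32 genes were higher (1.07%) and 71 were lower (2.36%). The number at 1 or more was 1 when a level of 6 was asked of all arrays, and the number 1.5-fold higher was 54 when a level of 4 was asked. With genes split into 5 bins by mean level, the SD lay between 0.24, in the brightest bin, and 0.29, in the middle one.

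Without replicates, 2 measures of error were at hand, and neither holds differences between cultures. Probe sets of the same gene gave an SD of 0.24 for the shift of 1 probe set (738 probe sets of 339 genes), which is close to the spread of 0.27 over all genes. For 338 genes the chosen probe set could be set against the next brightest one: 62.4% of these pairs had the same sign, with Pearson's r = 0.41 and Spearman's rho = 0.39 across genes that share the same 4 arrays. The second measure came from 7 probe sets for the spike-in controls BioB, BioC, BioDn and CreX, which stand outside the cells' own RNA. Their shifts ran from -0.37 for the BioDn 3′ probe set to 0.18 for the BioC 5′ probe set, with a median of -0.11.

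Control probe sets along the beta-actin and GAPDH transcripts differed by position. At the 5′ end of beta-actin, levels in RBM35A- and RBM35A+ cells were 14.79 and 14.75 for total RNA and 10.29 and 9.42 for polysomal RNA, a shift of -0.82. Its middle probe set had a shift of -0.71 and its 3′ probe set 0.04. GAPDH shifts were -0.76 for the 5′, -0.21 for the middle and 0.03 for the 3′ probe set. Toward the 5′ end, both polysomal arrays thus read lower than total RNA, and the RBM35A+ polysomal array read lowest. The Alu repeat control, which reads a repeat found in many transcripts, had levels of 14.64 and 15.02 in total RNA and 15.79 on both polysomal arrays, a shift of -0.38. Where each gene's own probe set lies along its transcript was not used here, so the part of these differences in the shift of any gene was not tested.

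**Figure D1:**
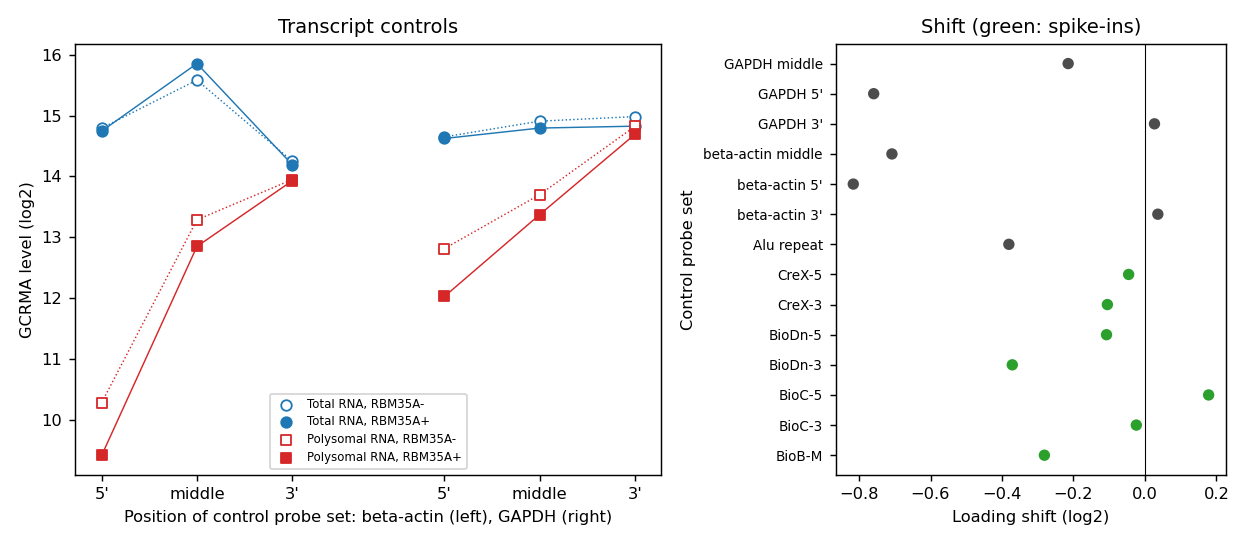
Left, GCRMA level (log2) of beta-actin and GAPDH controls by their position on the transcript, with blue circles for total RNA, red squares for polysomal RNA, open symbols for RBM35A- and filled symbols for RBM35A+ (1 array each). Right, loading shift (log2) of each control probe set, with spike-ins in green. The 5′ probe sets lie at -0.82 and -0.76, the 3′ probe sets of the same transcripts at 0.04 and 0.03, and the spike-ins between -0.37 and 0.18.

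A shift can arise in total RNA, in polysomal RNA, or from opposite differences in both. Among the 71 genes 1.5-fold lower, 25 differed by 1.5-fold in total RNA alone, 24 in polysomal RNA alone, 22 in neither and 0 in both. Among the 32 genes 1.5-fold higher, 4 differed in total RNA alone, 6 in polysomal RNA alone, 22 in neither and 0 in both. The 44 genes with neither difference past 1.5-fold had opposite signs in the fractions by arithmetic, since their shift could not otherwise pass 1.5-fold. Opposite signs were found in 72 of the 103 in all, which choosing genes by the shift favours. For comparison, over all kept genes 1.53% were 1.5-fold higher and 0.366% lower in total RNA, and 0.666% were higher and 1.33% lower in polysomal RNA.

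For the lowered genes, where the transcript read best is given by group. The 25 genes carried by total RNA had a median total RNA difference of 0.73 and a median polysomal difference of 0.02, and 20 of them read higher on the polysomal than on the total RNA array in RBM35A- cells (median 1.42), against 55.1% of all genes (44.9% read lower). The 24 genes carried by polysomal RNA had medians of -0.01 in total and -0.68 in polysomal RNA. Of these, 8 read higher on the polysomal array in RBM35A- cells (median -0.44), and 0 did so in RBM35A+ cells (median -1.15), where the share over all genes was 55.0% (45.0% lower). These polysomal minus total values use the same arrays as the shift and the grouping. A low RBM35A- total RNA reading raises both the total RNA difference and the RBM35A- value. A low RBM35A+ polysomal reading lowers both the polysomal difference and the RBM35A+ value. The grouping thus favours such a contrast, which is not separate evidence. The 5′ controls for beta-actin and GAPDH resembled the second group, with total RNA differences of -0.05 and -0.03 and polysomal differences of -0.86 and -0.79. The Alu control resembled the first, with 0.38 in total and 0.00 in polysomal RNA. Its equal polysomal readings are what quantile normalization gives a probe set of the same rank on both arrays. Whether these likenesses have a shared origin was not tested.

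**Figure D2:**
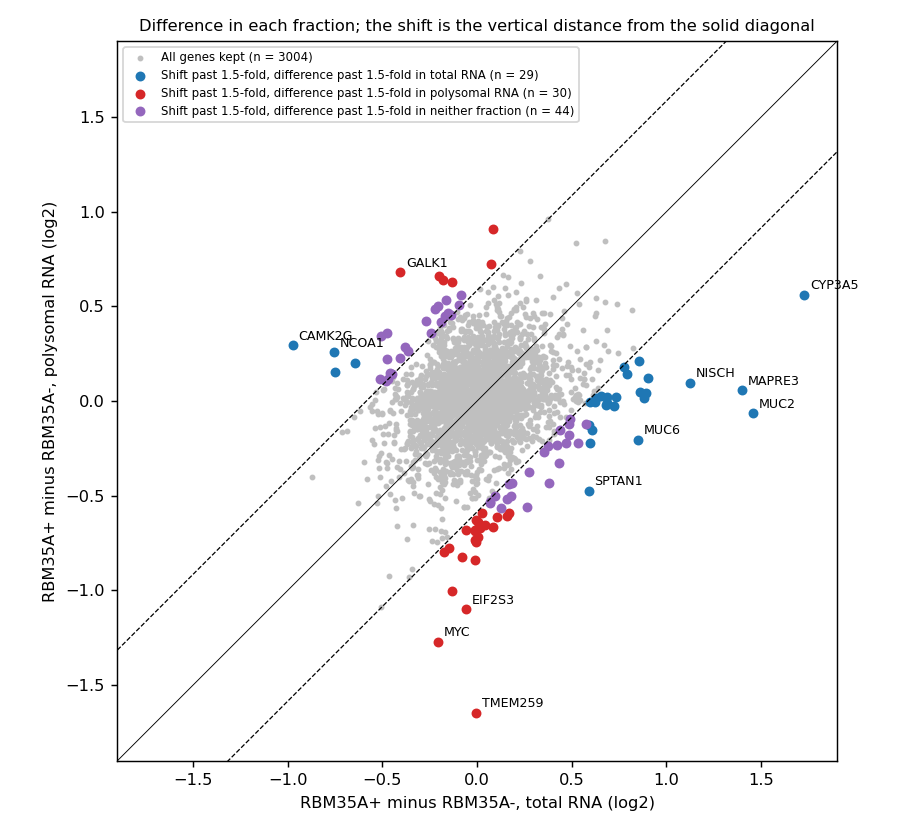
RBM35A+ minus RBM35A- difference in total RNA (x axis, log2) and in polysomal RNA (y axis, log2) for the 3004 genes, where the shift is the vertical distance from the solid diagonal and the dashed lines mark 1.5-fold. Coloured genes are past 1.5-fold in the shift, by the fraction that differed by 1.5-fold: 25 lower and 4 higher by total RNA, 24 lower and 6 higher by polysomal RNA, and 44 by neither. MUC2, MAPRE3, NISCH and CYP3A5 lie to the right, and TMEM259, MYC and EIF2S3 lie at the bottom.

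Of the 12 lowest genes, 4 were carried by polysomal RNA. TMEM259, or membralin, which sits in the membrane of the endoplasmic reticulum, read 9.72 on both total RNA arrays, RBM35A- first here and in each pair that follows, and 7.91 and 6.26 in polysomal RNA. Its shift of -1.64 was the lowest of all kept genes, a polysomal to total ratio 3.12-fold lower in RBM35A+ cells. MYC, the growth-promoting transcription factor, read 9.40 and 9.19 in total RNA and 8.04 and 6.77 in polysomal RNA, a shift of -1.06. Its other measured probe sets gave -0.33 and -0.11, so the size for MYC depended on the probe set. EIF2S3, the gamma subunit of the initiation factor eIF2 that brings the initiator tRNA to the ribosome, read 8.86 and 8.81 in total RNA and 6.83 and 5.73 in polysomal RNA (shift -1.04). RNF19B, a ubiquitin ligase, read 8.57 and 8.44 in total RNA and 7.73 and 6.73 in polysomal RNA (shift -0.87). In all 4 genes the RBM35A+ polysomal array stood alone as the lowest of the 4, and the total RNA arrays differed by 0.21 or less.

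The other 8 of the 12 lowest were carried by total RNA. MUC2, the main gel-forming mucin of intestinal goblet cells, read 6.54 in total RNA of RBM35A- cells and 8.00 in that of RBM35A+ cells, but 10.49 and 10.43 in polysomal RNA (shift -1.52). MUC6, a secreted mucin of gastric glands, read 8.74 and 9.59 in total RNA and 12.33 and 12.13 in polysomal RNA (shift -1.06). For both mucins the polysomal arrays were the brighter ones in either state, and the RBM35A- total RNA array was the lowest. MAPRE3, which binds growing microtubule ends, read 6.23 and 7.63 in total RNA and 9.09 and 9.14 in polysomal RNA (shift -1.34). CYP3A5, a drug-metabolizing cytochrome P450, read 5.41 and 7.14 in total RNA and 8.00 and 8.57 in polysomal RNA (shift -1.17), so it was higher with RBM35A in both fractions but less so on polysomes. NISCH, an integrin-binding protein, read 5.06 and 6.18 in total RNA and 9.61 and 9.71 in polysomal RNA (shift -1.03), the highest polysomal minus total values of the 12. Its RBM35A- total RNA level was close to the limit of 5.

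LGALS9, a galectin, read 7.31 and 8.20 in total RNA and 8.79 and 8.80 in polysomal RNA (shift -0.86). DDX11, a DNA helicase, read 7.85 and 8.75 in total RNA and 10.46 and 10.50 in polysomal RNA (shift -0.85). CYP3A5, LGALS9 and DDX11 have near-identical relatives, so their probe sets are uncertain as to gene. SPTAN1, the non-erythroid alpha spectrin, had the most negative polysomal difference of the 8 (-0.47): it read 8.85 and 9.44 in total RNA and 9.18 and 8.71 in polysomal RNA (shift -1.06). In RBM35A- cells SPTAN1 was thus brighter on the polysomal array and in RBM35A+ cells on the total RNA array.

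**Figure D3:**
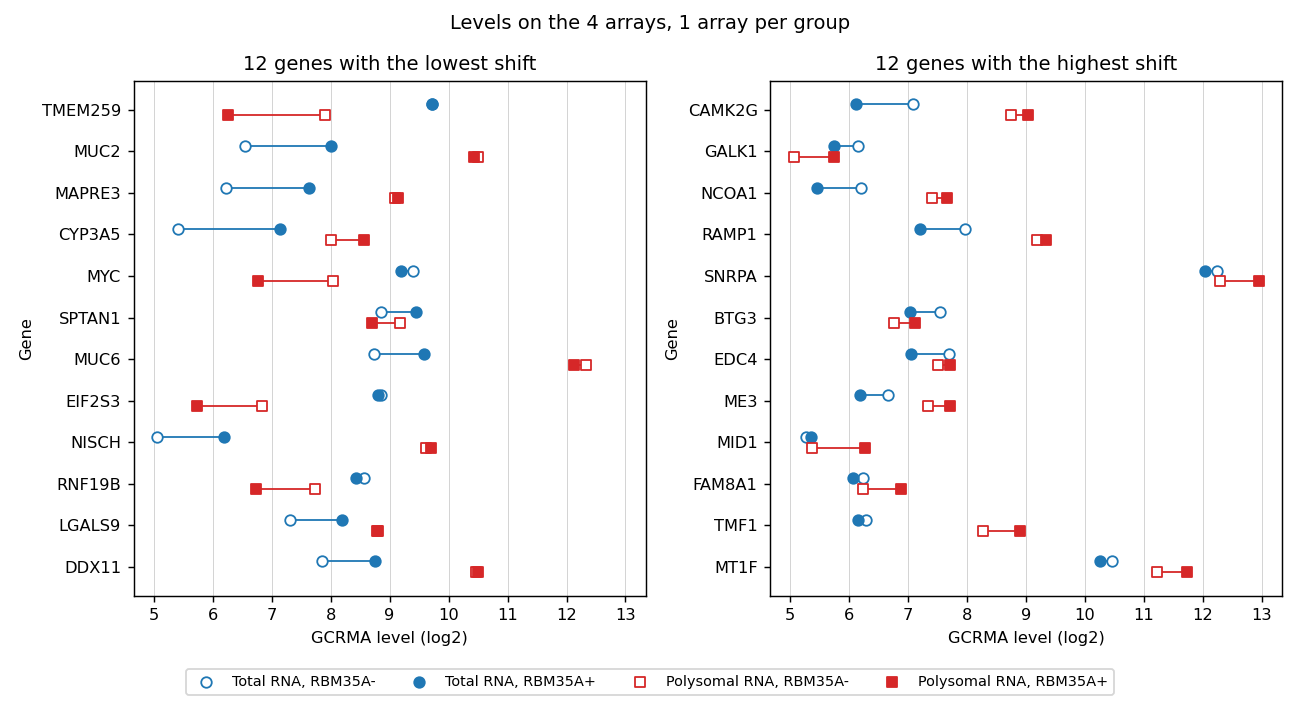
GCRMA level (log2) on each of the 4 arrays for the 12 genes with the lowest (left) and the 12 with the highest (right) shift, with blue circles for total RNA, red squares for polysomal RNA, open symbols for RBM35A- and filled symbols for RBM35A+. For TMEM259, MYC, EIF2S3 and RNF19B the red symbols are far apart and the blue ones close together, and for MUC2, MAPRE3, NISCH, LGALS9 and DDX11 the reverse holds.

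The 12 highest genes were smaller in size, from 1.27 to 0.71. Those carried by polysomal RNA numbered 5. GALK1, the kinase that begins galactose breakdown, read 6.16 and 5.75 in total RNA and 5.06 and 5.74 in polysomal RNA (shift 1.09), close to the limit of 5. SNRPA, a protein of the spliceosomal small nuclear ribonucleoproteins, read 12.24 and 12.04 in total RNA and 12.29 and 12.95 in polysomal RNA (shift 0.86). It was the brightest of the 12, with the RBM35A+ polysomal array standing above the other three. MID1, a microtubule-associated ubiquitin ligase, read 5.27 and 5.35 in total RNA and 5.36 and 6.27 in polysomal RNA (shift 0.83), also near the limit on all but the last array. FAM8A1 read 6.24 and 6.06 in total RNA and 6.24 and 6.88 in polysomal RNA (shift 0.82). TMF1, a coiled-coil protein of the Golgi, read 6.29 and 6.15 in total RNA and 8.26 and 8.89 in polysomal RNA (shift 0.76).

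Total RNA carried 4 of the 12 highest. CAMK2G, a calmodulin-dependent kinase, read 7.08 and 6.11 in total RNA and 8.74 and 9.04 in polysomal RNA, a shift of 1.27. Its other measured probe set gave -0.21, so its direction rested on 1 probe set. NCOA1, a nuclear receptor coactivator, read 6.21 and 5.45 in total RNA and 7.40 and 7.66 in polysomal RNA (shift 1.02). RAMP1, which pairs with the calcitonin receptor-like receptor, read 7.96 and 7.21 in total RNA and 9.18 and 9.33 in polysomal RNA (shift 0.91). EDC4, a scaffold of mRNA decapping, read 7.69 and 7.04 in total RNA and 7.51 and 7.71 in polysomal RNA (shift 0.84). In these 4 genes the RBM35A+ total RNA array was the lowest of the 4.

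The remaining 3 had opposite differences of under 1.5-fold in each fraction. BTG3, an antiproliferative protein, read 7.54 and 7.03 in total RNA and 6.77 and 7.11 in polysomal RNA (shift 0.85). ME3, the mitochondrial malic enzyme, read 6.66 and 6.19 in total RNA and 7.34 and 7.70 in polysomal RNA (shift 0.83). MT1F, a metallothionein, read 10.45 and 10.25 in total RNA and 11.22 and 11.72 in polysomal RNA (shift 0.71).

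Other probe sets of a gene test how far a shift belongs to the transcript and not to 1 set of probes, though they read the same RNA on the same arrays. Of the 103 genes past 1.5-fold, 12 had another measured probe set, 16 probe sets in all. Of these 16, 12 had the same sign as the chosen one and 1 was past 1.5-fold itself. That was YWHAZ, an adaptor protein that binds phosphorylated partners, at -0.62 and -0.85. The sign also held in ERBB3 (0.64, others 0.51, 0.46 and 0.13), a receptor of the EGFR family, in ARPC4 (-0.74, other -0.48) of the actin-branching complex, in RRBP1 (-0.60, other -0.48), a ribosome-binding protein of the endoplasmic reticulum, in EXPH5 (-0.69, other -0.20) and in MRPL28 (-0.67, other -0.17). It did not hold in HMGN4 (-0.76, other 0.27), TULP3 (-0.67, other 0.02), 1 of 2 other probe sets of TRAPPC6A (-0.69, others -0.24 and 0.06) and CAMK2G. TK1 went from 0.59 to 0.01. The median size was 0.68 for the chosen probe sets and 0.18, in the same direction, for the others. The chosen ones had been picked here for passing 1.5-fold, which favours large values.

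**Figure D4:**
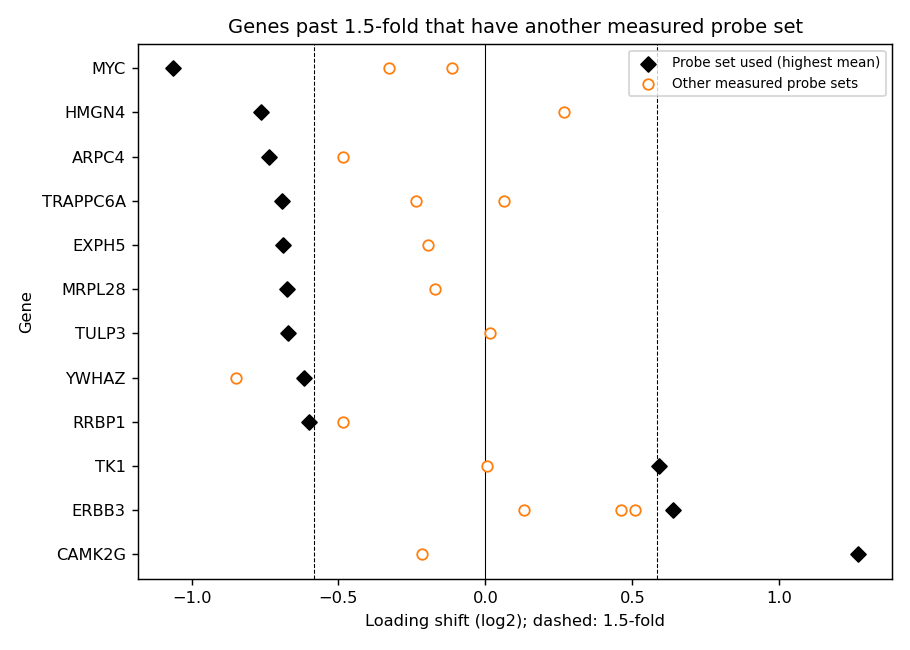
Loading shift (log2, x axis) of the 12 genes past 1.5-fold that have another measured probe set, with black diamonds for the probe set used and open circles for the others, and dashed lines at 1.5-fold. The circle of YWHAZ is the only one past the same dashed line as its diamond, and those of CAMK2G, HMGN4, TULP3 and 1 of TRAPPC6A lie across 0.

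The translation machinery itself was examined next. Transcripts of cytosolic ribosomal proteins begin with a run of pyrimidines, the 5′ terminal oligopyrimidine or TOP tract, through which the mTOR pathway sets their loading on polysomes. The first 20 bases of RefSeq transcripts (GRCh38.p14) are given here to show the tract beside the shift, 5′ to 3′, with capitals for a tract that starts with C and runs for at least 5 bases of C or T on the transcript strand. The first 4 are the ribosomal protein transcripts with the highest and lowest shifts among those with a tract, the last 3 are EIF2S3 and EIF4A3, the initiation factors farthest from 0, and TMEM259.
RPL31, chr2:101002289-101002308, plus strand, shift 0.33: CTTCCTTTCCaacttggacg
RPL35, chr9:124861938-124861957, minus strand, shift 0.29: CTCTTTCCCTCggagcgggc
RPS12, chr6:132814569-132814588, plus strand, shift -0.21: CTCTTTCCCTgccgccgccg
RPL41, chr12:56116633-56116652, plus strand, shift -0.23: CTCTCggccttagcgccatt
EIF2S3, chrX:24054956-24054975, plus strand, shift -1.04: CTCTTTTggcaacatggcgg
EIF4A3, chr17:80147109-80147128, minus strand, shift 0.62: acagcgaggtcggcagcggc
TMEM259, chr19:1021104-1021123, minus strand, shift -1.64: gagaaagcggaagatggcgg

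Of 48 ribosomal protein transcripts on the array 47 were kept, with a median shift of 0.06. Of these, 30 were above 0 (50.5% of all genes were, and 49.5% below). In either direction 0 were past 1.5-fold (1.07% of all genes were higher and 2.36% lower). Most of these transcripts were very bright, and each pair of arrays was quantile normalized, so differences within a pair follow rank alone. RPS10 and RPLP1, for example, had polysomal differences of 0.00. A move shared by the brightest transcripts may have been removed, so whether loading of the list changed as a whole was not tested. RPL36AL (0.40), RPL31 (0.33) and RPL35 (0.29) were highest, and RPL41 (-0.23) was lowest. RPL31 read 13.28 and 13.20 in total RNA and 13.06 and 13.32 in polysomal RNA. A tract stood at the start of 28 of the 42 ribosomal protein transcripts with a sequence (66.7%), against 7.16% of the 2557 kept genes with one and 4.04% of the 27305 sequences of the table. The median shift was 0.04 for the 28 with a tract and 0.06 for those without. Over all kept genes it was 0.01 for the 183 with a tract and 0.01 for the rest. The tract was sought only at the annotated start. Some ribosomal protein transcripts counted as without one, such as RPL10A and RPS28, had a run of C and T a few bases downstream. The split therefore does not separate TOP transcripts from others. The 15 kept TOP transcripts outside the ribosome had a median of 0.11, with 8 above 0 and 0 past 1.5-fold, from HNRNPA1 at -0.50 to IPO7, a nuclear import receptor, at 0.27. NACA (0.22, other probe set 0.04), of the nascent chain complex, and EIF3E (0.19) followed.

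Initiation factors, with 30 of 34 kept, had a median of 0.11 and 19 above 0. For all lists of this paragraph, the shares over all genes were 50.5% above 0, 1.07% 1.5-fold higher and 2.36% lower. EIF4A3, the helicase of the exon junction complex, was the 1 member 1.5-fold higher (0.62), reading 9.05 and 8.90 in total RNA and 8.24 and 8.71 in polysomal RNA. EIF2S3 was the 1 member 1.5-fold lower, while EIF2S1, the alpha subunit of the same factor, was at 0.32 and EIF2B4, a subunit of its exchange factor, at 0.41. EIF2S2, another eIF2 subunit, was at -0.23. Of the eIF2 subunits, EIF2S3 and EIF2S2 thus lay below 0 and EIF2S1 above. EIF5B, another initiation factor, was at -0.43. Elongation and release factors (10 kept of 11) had a median of -0.04, 4 above 0 and 0 past 1.5-fold. EIF5A (-0.40), EEF2 (-0.28), which moves the ribosome along, and ABCF1 (-0.27) were lowest, and TSFM (0.32) was highest. Aminoacyl-tRNA synthetases (14 kept of 16) had a median of -0.03, 5 above 0 and 0 past 1.5-fold. AARS1 (-0.35), SARS1 (-0.15) and RARS1 (-0.15) were lowest, and TARS1 (0.28) and KARS1 (0.26) were highest.

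Stress-response and short-lived transcripts are described next. Of the ATF4 and amino acid response, the program by which cells meet amino acid shortage and stress on the endoplasmic reticulum, 20 of 26 were kept. Their median was -0.13, with 6 above 0 (50.5% of all genes were). Past 1.5-fold there were 0 (1.07% of all genes were higher and 2.36% lower). The amino acid transporter subunit SLC3A2 (-0.40), the proline enzyme PYCR1 (-0.38) and the mTOR inhibitor DDIT4 (-0.36) were lowest. DDIT4 read 8.39 and 8.02 in total RNA and 10.03 and 9.30 in polysomal RNA, lower with RBM35A in both fractions. Members above 0 numbered 6 of 20 in total RNA (51.0% of all genes) and 1 of 20 in polysomal RNA (54.9%). Transcripts with regulatory upstream reading frames (13 kept of 17) had a median of -0.10, 5 above 0 and 0 past 1.5-fold, led by ATF4 itself at -0.34, reading 11.90 and 11.80 in total RNA and 12.71 and 12.27 in polysomal RNA. CEBPA (-0.32) and the phosphatase subunit PPP1R15A (-0.30), which reverses eIF2 phosphorylation, followed. EIF5 was highest of the list, at 0.32.

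Immediate early and short-lived transcripts had the lowest median of the lists, at -0.24, with 21 of 44 kept, 5 above 0, and 1 (MYC) 1.5-fold lower. For this and the next 2 lists, the shares over all genes were 50.5% above 0 and 2.36% 1.5-fold lower. NFKBIA went the other way, at 0.52, farther from 0 than any member but MYC. IER3, a survival factor, read 8.23 and 8.05 in total RNA and 8.56 and 7.93 in polysomal RNA (shift -0.44), and ZFP36, which targets AU-rich mRNAs for decay, 9.61 and 9.59 and 8.95 and 8.48 (shift -0.44). The median polysomal difference of the list was -0.23 and its median total RNA difference -0.02. Its median shift was -0.16 without probe sets of shared sequence. Transcripts described as sensitive to the cap-binding protein eIF4E (12 kept of 19) had a median of -0.04, 4 above 0 and 1, again MYC, past 1.5-fold. CDK2 was at -0.35 (other probe set -0.63) and the kinase PIM1 at -0.33 (other probe set -0.40). Wnt targets (11 kept of 19) had a median of -0.11 and 3 above 0, with MYC as the 1 member past 1.5-fold. The crypt receptor EPHB3 was at -0.46 and SOX9 at -0.19, while the highest Wnt target was at 0.39. MYC stands in 3 of these lists, so they are not separate.

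**Figure D5:**
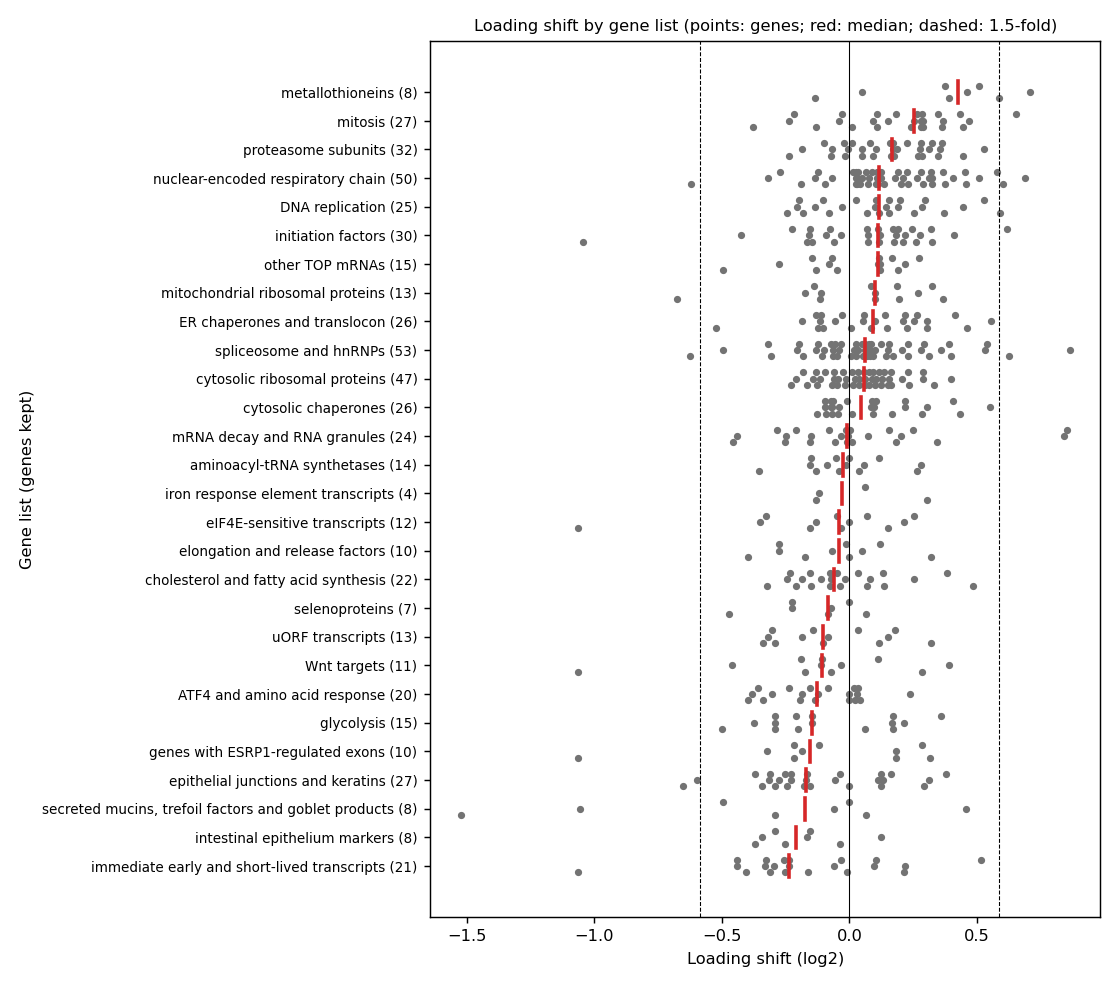
Loading shift (log2, x axis) of the kept genes of each list (grey points) with the list's median (red bar), ordered by the median, where dashed lines mark 1.5-fold and the number of genes is in parentheses. Medians run from -0.24 for immediate early and short-lived transcripts to 0.42 for metallothioneins, and points of nearly every list lie on both sides of 0.

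Of secreted mucins, trefoil factors and goblet products 8 of 18 were kept, with a median of -0.18, 3 above 0 and 2, MUC2 and MUC6, 1.5-fold lower. The shares over all genes were 50.5% above 0 and 2.36% 1.5-fold lower. FCGBP, which binds mucins in the mucus gel, read 5.91 and 6.66 in total RNA and 7.90 and 8.16 in polysomal RNA (shift -0.49). MUC5AC was at -0.29, and the trefoil factor TFF1 was highest at 0.46, lower in total RNA of RBM35A+ cells (9.74 and 9.21) and alike in polysomal RNA (9.81 and 9.74). The trefoil factor TFF3 (-0.06), AGR2 (0.00), which folds mucins, and SPINK4 (0.07) lay near 0. The median of this list was -0.06 when a level of 6 or of 4 was asked, and -0.26 when all measured probe sets of a gene were averaged. In total RNA 4 of the 8 were above 0 (51.0% of all genes were), with a median difference of -0.02. MUC2 (1.46), MUC6 (0.85), FCGBP (0.75) and MUC5AC (0.08) were higher in RBM35A+ cells, and TFF1 (-0.53), TFF3 (-0.21), AGR2 (-0.21) and SPINK4 (-0.12) were lower.

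Epithelial junction and keratin genes (27 kept of 34) had a median of -0.17, with 8 above 0 and 2, JUP and DSG2, 1.5-fold lower. Over all genes 50.5% were above 0 and 2.36% were 1.5-fold lower. JUP, or plakoglobin, read 10.61 and 11.03 in total RNA and 9.61 and 9.38 in polysomal RNA (shift -0.65), and the desmosomal cadherin DSG2 read 8.98 and 9.07 in total RNA and 8.44 and 7.94 in polysomal RNA (shift -0.60). LGALS4, an intestinal galectin, was at -0.37, and the highest member of the list was at 0.38. In total RNA 20 of the 27 were above 0 (51.0% of all genes were), and in polysomal RNA 10 were (54.9% of all genes). Of the 8 kept epithelial markers, 1 was above 0 (KRT18, 0.12), with KRT19 at -0.34 and CDH1, the cadherin of epithelial adherens junctions, at -0.29. Genes with ESRP1-regulated exons (10 kept of 20) had a median of -0.15, 4 above 0, and SPTAN1 as the 1 member past 1.5-fold. The lipolysis-stimulated receptor LSR (-0.32) and dynamin DNM2 (-0.22) were next, and CD44 was at 0.28. A change in exon use inside a probe set would also alter its reading, and this was not tested. The list's median was -0.06 when values under 5 were raised to 5.

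The nuclear-encoded respiratory chain list had 50 of 58 kept, a median of 0.12 and 42 above 0 (84.0%, against 50.5% of all genes). At 1.5-fold, 2 members were higher and 1 lower (1.07% and 2.36% of all genes). COX7A2, a small subunit of cytochrome oxidase, read 12.78 and 12.51 in total RNA and 12.64 and 13.06 in polysomal RNA (shift 0.69), and the complex III core protein UQCRC2 read 9.66 and 9.57 and 9.17 and 9.68 (shift 0.60). UQCRB was at 0.58. ATP5F1A, the alpha subunit of ATP synthase, went the other way, with 11.24 and 11.06 in total RNA and 7.78 and 6.99 in polysomal RNA (shift -0.62). In total RNA 16 of the 50 were above 0 (51.0% of all genes were), and in polysomal RNA 35 were (54.9% of all genes). Mitochondrial ribosomal proteins (13 kept of 15) had a median of 0.10, 8 above 0, and MRPL28 as the 1 member past 1.5-fold, downward (-0.67, other probe set -0.17). MRPL58 (0.37), DAP3 (0.32) and MRPL40 (0.27) were highest.

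Proteasome subunits (32 kept of 36) had a median of 0.17 and 24 above 0 (75.0%, against 50.5% of all genes). Past 1.5-fold there were 0 (1.07% of all genes were higher and 2.36% lower). PSMA4, of the core particle, read 10.24 and 9.56 in total RNA and 9.21 and 9.05 in polysomal RNA (shift 0.53, other probe set 0.27), PSMC1 of the regulatory cap was at 0.45, and PSMA3 at 0.36. Their medians were -0.07 in total and 0.05 in polysomal RNA. Cytosolic chaperones (26 kept of 32) had a median of 0.05, 14 above 0 and 0 past 1.5-fold. Subunits of the chaperonin that folds actin and tubulin ranged from the 3 highest of the list, CCT3 (0.55), CCT8 (0.44) and CCT2 (0.41), through CCT5 (0.29) and CCT7 (0.10) to CCT4 (-0.01) and CCT6A (-0.07). CCT3 read 11.56 and 11.52 in total RNA and 11.23 and 11.74 in polysomal RNA. The chaperones and translocon of the endoplasmic reticulum (26 kept of 31) had a median of 0.09, 17 above 0 and 0 past 1.5-fold. SSR1 (0.56), the oligosaccharyltransferase STT3A (0.46) and SRP19 (0.41) of the signal recognition particle were highest, and CALR was lowest at -0.52.

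The mitosis list had 27 of 39 kept, a median of 0.26 and 21 above 0 (77.8%, against 50.5% of all genes). In it 1 member, CDC20, was 1.5-fold higher (1.07% of all genes were) and 0 were lower (2.36%). CDC20, the activator of the anaphase-promoting complex, read 9.84 and 9.91 in total RNA and 8.04 and 8.77 in polysomal RNA (shift 0.65). The kinesin KIF22 was at 0.47, with levels of 6.33 and 5.90 in total RNA, and AURKA, a spindle pole kinase, at 0.45 (other probe set 0.36). TOP2A was lowest at -0.38. In total RNA 9 of the 27 were above 0 (51.0% of all genes were), and in polysomal RNA 21 were (54.9% of all genes). DNA replication genes (25 kept of 43) had a median of 0.12 and 17 above 0 (68.0%), with TK1 as the 1 member past 1.5-fold (0.59, other probe set 0.01), the sliding clamp PCNA at 0.53 and the helicase component CDC45 at 0.44. PCNA read 10.24 and 10.08 in total RNA and 9.20 and 9.57 in polysomal RNA.

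Metallothioneins, small proteins that bind zinc and copper, had the highest median, 0.42. The list held 7 kept metallothioneins and their transcription factor MTF1. Of these 8, 7 were above 0 (50.5% of all genes were), and 1, MT1F, was 1.5-fold higher (1.07% of all genes were). MT1G read 7.81 and 8.19 in total RNA and 8.43 and 9.40 in polysomal RNA (shift 0.58), just under 1.5-fold, and MT1E 13.13 and 13.19 and 14.37 and 14.89 (shift 0.46). MT1X was lower at -0.13, and MTF1 was at 0.51. The median was 0.08 in total and 0.49 in polysomal RNA. Probes for 1 metallothionein may also bind transcripts of another, so these values overlap.

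Genes that process RNA diverged. The spliceosome and hnRNP list (53 kept of 61) had a median of 0.06, 35 above 0, 2 members 1.5-fold higher and 1 lower. Over all genes 50.5% were above 0, 1.07% were 1.5-fold higher and 2.36% lower. SNRPA was followed by SRSF7, a splicing factor, which read 7.15 and 6.64 in total RNA and 6.10 and 6.22 in polysomal RNA (shift 0.63), and by SNRPA1 (0.54). HNRNPH1 read 6.78 and 6.63 in total RNA and 7.12 and 6.35 in polysomal RNA (shift -0.62). Genes of mRNA decay and RNA granules (24 kept of 36) had a median of -0.01 and 10 above 0, with EDC4 and BTG3 as the 2 members 1.5-fold higher and 0 lower. FXR2 (-0.46), SMG5 (-0.44) of nonsense-mediated decay and G3BP1 (-0.28), a core protein of stress granules, were lowest. Of the non-coding RNAs 1 of 2 was kept, TUG1, with 7.57 and 7.66 in total RNA, 8.85 and 9.14 in polysomal RNA and a shift of 0.20.

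Metabolic lists had 0 members past 1.5-fold, where the shares over all genes were also small (1.07% higher and 2.36% lower). Above 0 were 50.5% of all genes. Glycolysis (15 kept of 19) had a median of -0.15 and 6 above 0. The aldolase ALDOA read 13.13 in both total RNA arrays and 11.57 and 11.07 in polysomal RNA (shift -0.50), ALDOC was at -0.38 and PGK1 at -0.29, while ENO1 was at 0.36. Cholesterol and fatty acid synthesis (22 kept of 24) had a median of -0.06 and 8 above 0. MVK was at -0.32, the regulator SREBF2 at -0.24 and the fatty acid synthase FASN at -0.23. The member farthest from 0 went the other way, at 0.48. Selenoproteins (7 kept of 13), which need a special recoding of a stop codon, had a median of -0.09 and 1 above 0, with the glutathione peroxidase GPX2 at -0.47, the thioredoxin reductase TXNRD1 at -0.23 and GPX4 at -0.22. Of transcripts with iron response elements 4 of 7 were kept, with a median of -0.03 and 2 above 0: SLC11A2 (-0.13), CDC42BPA (-0.12), the ferritin light chain FTL (0.06) and the transferrin receptor TFRC (0.31). The sign of this list's median held in 7 of 8 alternatives.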

How the data were processed

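RNA of LS180 cells was measured on 4 Affymetrix HG-U95Av2 arrays, 1 per group, so precision is limited by the number of arrays. The authors deposited log2 values from GCRMA, a background correction and normalization for such arrays, which the submitters' processing notes name without a version. Sorted values agreed to 4.29e-06 between both total RNA arrays and to 6.61e-06 between both polysomal ones, so each pair had been quantile normalized apart from the other. A shift covering most genes would have been removed by this step.

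Of 12626 probe sets, 67 were controls, 10943 had 1 gene symbol, 546 several and 1070 none. Symbols of 10934 were updated by gene ID in a RefSeq table (GRCh38.p14). Differences were computed in Python 3.11.15 with pandas 2.3.3, with a level of 5 asked on all 4 arrays and no model or p-value. The code was tested on simulated data with known shifts. The members, the 30 gene lists and the list of epithelial markers were chosen with earlier results of these data known. Named are the 12 lowest and 12 highest genes and, per list, the 3 farthest from 0 in the direction of its median and all members past 1.5-fold. Other genes named, such as those with another measured probe set or the opposite end of a list, were chosen after their values were seen. Alternatives were levels of 4 and 6, raising values to 5, the mean of probe sets, leaving out probe sets of shared sequence, joint quantile normalization, trend removal and median centring. Protein length, planned as a further split, was not used here.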

Additional observations from a re-analysis of the deposited data

Results flagged for a closer look

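For 10 of the 24 lowest and highest genes, the RBM35A+ minus RBM35A- difference had opposite signs in total and polysomal RNA, each larger than the SD of 1 probe set (0.19 in total and 0.20 in polysomal RNA). The 24 genes were chosen by the shift, which favours opposite signs, so the count is no separate evidence. Some differences passed the SD narrowly, such as that of MUC6 in polysomal RNA (-0.203, against 0.195). With 1 array per group, these differences between fractions were not tested. SPTAN1 (shift -1.06) and MUC6 (-1.06) were higher in total and lower in polysomal RNA of RBM35A+ cells. The reverse held for CAMK2G (1.27), GALK1 (1.09), NCOA1 (1.02), SNRPA (0.86), BTG3 (0.85), EDC4 (0.84), ME3 (0.83) and MT1F (0.71).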

How the results depend on the processing

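The 4 counts of shifted genes and the SD over genes stayed within 1.5 times their value, or within the SD of 1 probe set, in 38 of 40 recomputations. The exceptions were 1 gene at 1 or more with a minimum of 6 on all arrays (3 as reported) and 54 genes 1.5-fold higher with a minimum of 4 (32 as reported). With the minimum of 6, GALK1 and NCOA1 dropped out and CAMK2G remained. CAMK2G reversed, to -0.21, without probe sets of shared sequence, where another probe set stands for it. Of 807 recomputed values of single genes, 6 others moved by more than the SD of 1 probe set. With the mean of a gene's probe sets, MYC moved to -0.50, CAMK2G to 0.53, MRPL28 to -0.42 and TK1 to 0.30, and without shared ones MYC moved to -0.33 and CDK2 to -0.63. Of 224 recomputed list medians, 6 moved. Many of these recomputations could hardly move a value. The SD over genes, 0.27, was allowed to differ by up to 0.24. Other level limits left the shift of a gene that stayed in as it was. So did the probe set alternatives for genes with 1 probe set. Median centring took away 0.0023. The small numbers that moved are therefore no evidence that the shifts are stable. No paired analysis was possible because each group had 1 array, and no array could be left out for the same reason. How far background limits the shifts of dim genes was not tested.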

Other observations

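Probe sets without a gene symbol were kept out of the report. Of 217 of them at 5 or more on all 4 arrays, 3 had a shift of -1 or less and 0 of 1 or more, and of 211 with several symbols, 2 and 0 did. The lowest of those without a symbol had a larger shift than any kept gene: its levels in RBM35A- and RBM35A+ cells were 8.11 and 9.80 for total RNA, and 9.88 and 8.42 for polysomal RNA, a shift of -3.14. The next lowest was at -1.43, and the highest at 0.99.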
